A study of Sus scrofa with 9 samples.

Results

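Solute carriers (SLC) are membrane proteins that move small molecules such as amino acids, sugars, nucleosides, metals, fatty acids and ions across the plasma membrane and the membranes of mitochondria, lysosomes and the Golgi. They are numbered by family, and most carry their substrate down its own gradient or couple it to sodium, protons or a counter-substrate. In the arterial wall they feed contraction and matrix synthesis in smooth muscle cells, and macrophages that enter the wall bring lysosomal and metabolic carriers of their own. The genes described here are those of the deposited gene table whose name begins with SLC and a digit and whose mean level over all libraries was at least 1 FPKM (fragments per kilobase of transcript, scaled to sequencing depth), leaving out genes that the table's KEGG annotation places in the lysosome and the widely described SLC2A1, SLC2A3, SLC2A4, SLC11A1, SLC11A2 and SLC40A1. The members were thus chosen by their mean FPKM, which is given as a description, and differences between groups are tested separately. This gave 163 members out of 332 SLC-named genes and 21357 genes in all. Of the others, 165 lay under the level limit, 1 was removed as lysosomal and 3 were removed by name, and 16 of the SLC-named genes were at 0 in every library.

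The libraries came from the abdominal aorta of Tibetan minipigs, a small pig breed, and fell into 3 groups of 3. NC animals had the normal diet for 24 weeks. H24 animals had the high-fat diet for 24 weeks and are labelled atherosclerosis, and H8 animals had it for 8 weeks and are labelled hypercholesterolemia. The study's pigs were male, their diet was enriched in fat and cholesterol, and neither the labels nor the methods say that samples were pooled. Those methods describe only NC and the 24-week diet group, so they do not state the sex, number or diet composition of the H8 animals. NC was sampled only at 24 weeks, so diet and feeding time cannot be told apart in H8/NC. No normal-diet group was sampled at 8 weeks, so in H24/H8 the length of the diet and the time under study cannot be told apart either. In a whole vessel, a change in the number of cells of a type and a change in RNA per cell cannot be told apart.

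Total counts per library ran from 44094263 to 75787978. Markers of smooth muscle, the labelled tissue's main cell type, summed to between 8524 and 14599 FPKM in 8 libraries and to 1800 in H24 replicate 3. The 12 macrophage markers, all of which rose in H24/NC, summed to between 38.0 and 54.0 FPKM in NC. They reached 303, 58.1 and 154 in H8 replicates 1 to 3, and 512, 316 and 3417 in H24 replicates 1 to 3. Of 6 T cell markers, 5 rose in H24/NC. H24 replicate 3 stood apart, and its correlation with the other H24 libraries across genes (Pearson's r of log2 counts scaled to library totals) was 0.869 and 0.831 against 0.945 between those 2. Values without that library stand beside many of the results below. The 5 fat cell markers summed to 89.7 to 157 FPKM in NC, to 49.1, 140 and 50.2 in H8, where FABP4 made up nearly all of the sum, and to 106, 57.2 and 87.0 in H24, while ADIPOQ was at 4.44 to 14.6 FPKM in NC and at 0.0789 to 0.106 in H8. Of these markers 3 of 4 tested fell in H8/NC, 1 of 5 rose in H24/NC and 4 of 5 rose in H24/H8. The 6 fibroblast markers summed to 2948 to 3747 FPKM in NC, 4569, 7357 and 6073 in H8 and 3262 to 3876 in H24. Of these, 2 rose in H8/NC (COL1A1 and COL1A2), 2 rose in H24/NC and 1 rose in H24/H8. No part of these markers in any carrier's change was tested.

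The members spanned 43 families and a wide range of levels. Only SLC25A3, the mitochondrial phosphate carrier, and SLC3A2, the heavy chain that carries several amino acid exchangers to the cell surface, had a mean of 50 FPKM or more. A mean of 20 to 50 was seen in 16 members, 10 to 20 in 21, 5 to 10 in 42, 2 to 5 in 52 and 1 to 2 in 30. SLC25A3 was at 155, 130 and 162 FPKM in NC, 118, 117 and 109 in H8, and 128, 109 and 127 in H24. SLC3A2 was at 42.7, 57.0 and 57.8 FPKM in NC, 38.0, 49.3 and 33.2 in H8, and 51.7, 46.9 and 77.8 in H24. The SLC3A2 groups overlapped, whereas SLC25A3 was lower in every H8 and H24 library than in any NC library without reaching a called change.

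By mean level the next were SLC44A2, a choline transporter-like protein (49.0 FPKM), SLC12A4, a potassium-chloride cotransporter (38.9), SLC1A5, a neutral amino acid and glutamine transporter (36.8), and SLC38A2, a sodium-coupled neutral amino acid transporter (36.6). At the other end, SLC9B2 (1.001), SLC25A48 (1.03) and SLC18A2 (1.08) lay just inside the level limit, and SLC22A15 (0.999), SLC16A13 (0.939) and SLC35F2 (0.933) just outside. The limit used the mean of all libraries, so 16 members reached it only with the help of 1 group: 11 would fall under it without H24, 4 without H8 and 1 without NC. The 11 are SLC2A5, SLC45A3, SLC2A6, SLC27A6, SLC47A1, SLC39A8, SLC6A9, SLC22A23, SLC4A11, SLC25A48 and SLC9B2. The 4 are SLC25A44, SLC7A11, SLC51B and SLC35E3, and the 1 is SLC2A12. Such members had to differ between groups to be included, and counts of called members contain them. In every library, 127 members stood at 1 FPKM or more. Mitochondrial carriers formed the largest functional group with 29 members, followed by amino acid and peptide (21), sugar and sugar phosphate (17), nucleotide sugar (16), zinc (14) and bicarbonate, chloride and anion carriers (12). Groups follow the family number, so that SLC5A6, the multivitamin transporter, counts with the sugar families. Of the names, 5 belong to genes that are not carriers themselves (the scaffold proteins SLC9A3R1 and SLC9A3R2, SLC2A4RG, SLC4A1AP and SLC7A6OS), and none of these was called in any comparison.

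A gene was called higher or lower when edgeR's quasi-likelihood test gave an unadjusted p under 0.05 and a log2 fold change beyond 1, the thresholds that the study's methods use. Only called genes are said to have risen or fallen. No member passed a Benjamini-Hochberg adjusted p of 0.05 in any comparison with this test, and the lowest adjusted p was 0.132 in H24/NC, 0.0652 in H8/NC and 0.336 in H24/H8. Over all genes tested, the adjusted threshold and fold limit were passed by none in H24/NC, by 0.014% in each direction in H8/NC, and by 0.0135% higher and none lower in H24/H8. DESeq2's test was read at an adjusted p under 0.05 and the same fold limit. It put 18 of the 163 members higher in H24/NC, where 5.89% of all genes tested were higher. In H8/NC it put 14 members higher and 2 lower, against 3.11% and 1.19% of all genes tested. In H24/H8 it put 8 members higher and 4 lower, against 3.12% and 1.39% of all genes tested. It gave no p for SLC6A6 and SLC37A2 in H24/NC or for SLC6A6 in H24/H8. Its counts contain members that reached the level limit only with the help of 1 group, and the shares of all genes are not held to that restriction. In H24/NC these are SLC2A5, SLC45A3, SLC2A6, SLC27A6, SLC47A1, SLC22A23, SLC4A11, SLC25A48 and SLC9B2. Over the 3 comparisons 48 members were called at least once and 115 never.

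**Figure D1:**
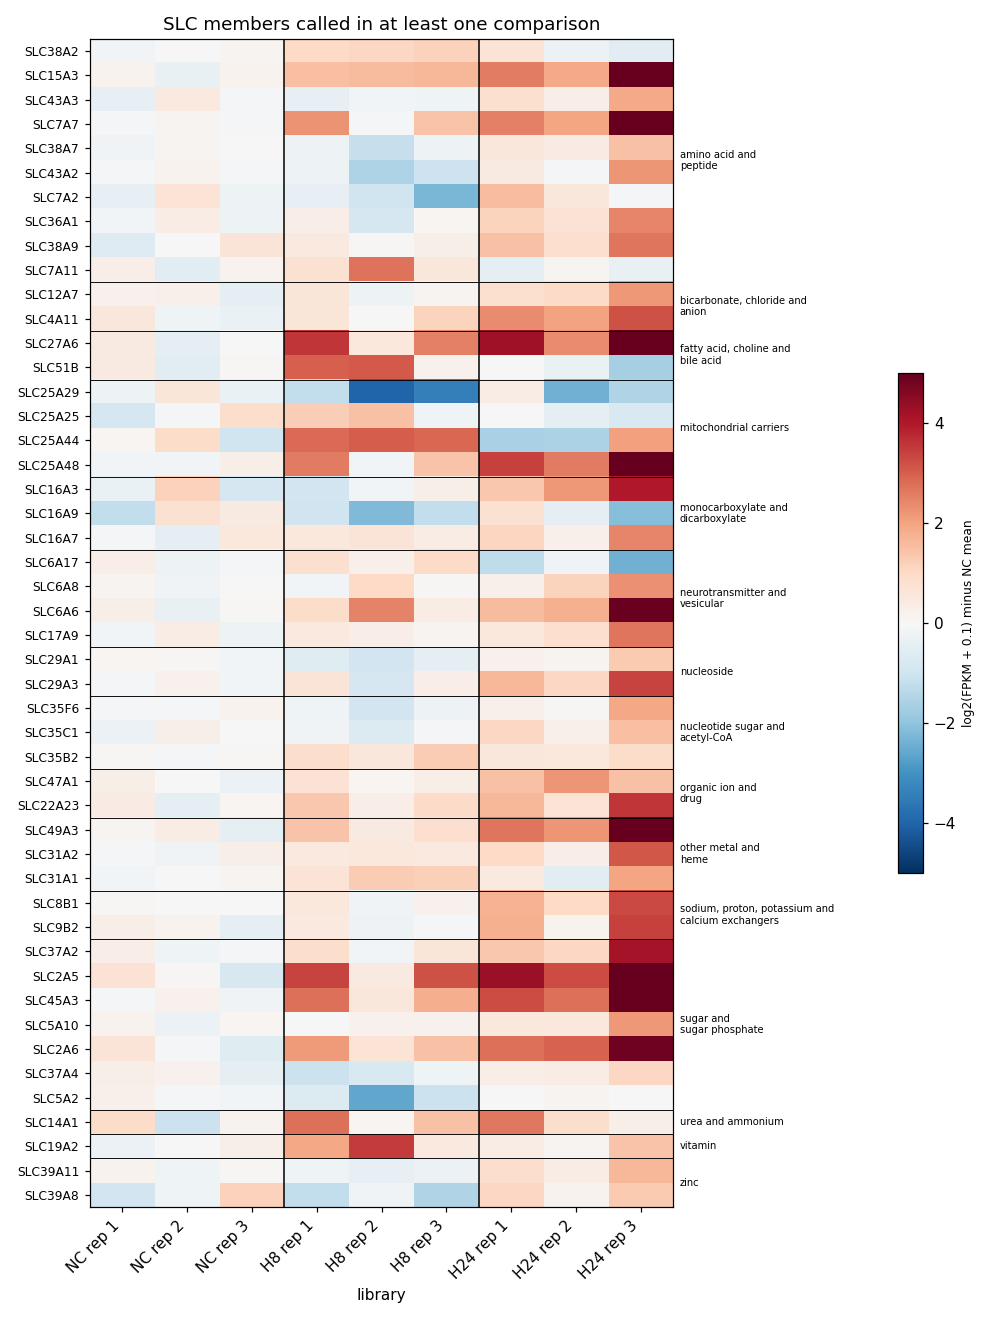
Level of the 48 members called in at least 1 comparison, in each of the 9 libraries (columns), as log2(FPKM + 0.1) minus the NC mean of that scale, ordered by functional group (right). Red is above and blue below the NC mean, colours saturate at 5 in either direction, and H24 replicate 3 holds most of the darkest cells.

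After 24 weeks of the high-fat diet, some carriers of amino acids and sugars, the taurine transporter and 1 of 2 nucleoside carriers were higher than in NC, most members were not called, and none was called lower. Of the 163 members, 27 (16.6%) rose in H24/NC, against 9.95% of all genes tested. Of these 27, 9 reached the level limit only with the help of 1 group. Among the 147 members without such help 18 rose (12.2%), against 6.62% of all genes held to the same restriction. None fell, against 1.52% of all genes tested, and 1 member, SLC7A6OS, was lower at an unadjusted p under 0.05 by less than the fold limit (log2 fold change -0.58). DESeq2 called 1 member lower, SLC2A12. At an unadjusted p under 0.05 of any size there were 33 members, against 13.9% of all genes tested. Levels did not overlap in 36 members (22.1%) that were higher in H24 and in 7 (4.29%) that were lower, against 12.8% and 7.8% of all genes tested. The median log2 fold change was 0.19 over members and 0.01 over all genes tested, and 108 members were on the higher side. Without H24 replicate 3, 19 members rose and 1 fell, against 6.49% and 1.28% of all genes in that fit, and 17 of the 19 were among the 27. Of these, 9 had an adjusted p under 0.05 by edgeR, against 1.99% of all genes: SLC49A3, SLC15A3, SLC6A6, SLC7A7, SLC2A5, SLC45A3, SLC2A6, SLC27A6 and SLC4A11. The last 5 named reached the level limit only with H24, and the 1.99% is not held to that restriction. Of the 27, 16 were called in every fit that left out 1 library, and the other 11 lost the call without H24 replicate 3 or without at least 1 NC library, and SLC43A3 also without H24 replicate 1.

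**Figure D2:**
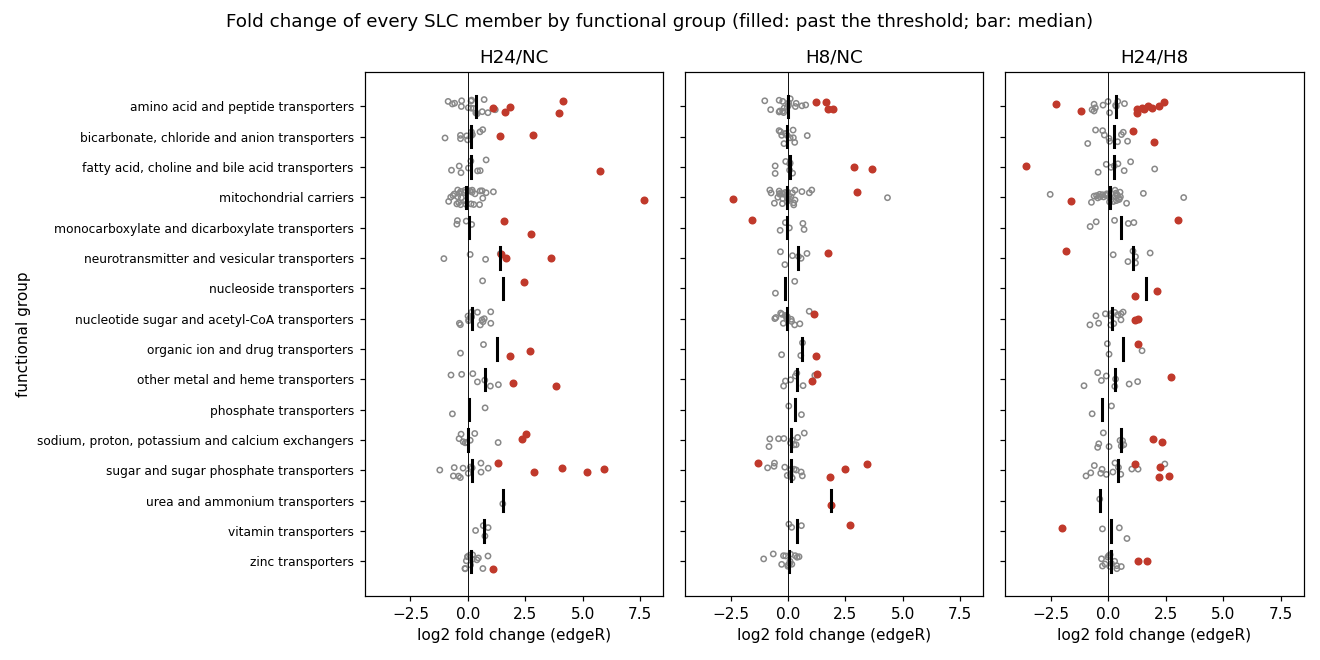
Log2 fold change (edgeR) of all 163 members in H24/NC, H8/NC and H24/H8, in 16 functional groups. Filled points passed an unadjusted p of 0.05 and a log2 fold change beyond 1, open points did not, and the black bar is the group's median; vertical scatter within a group has no meaning. In H24/NC every filled point lies to the right of 0.

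Among amino acid and peptide carriers, 5 of 21 rose in H24/NC and none fell. SLC15A3 (ENSSSCG00000013114, chromosome 2, 10799676 to 10814388, plus strand), a proton-coupled histidine and peptide transporter of lysosomes, was at 2.92, 1.998 and 2.97 FPKM in NC, 7.63, 7.87 and 8.39 in H8, and 15.9, 9.94 and 101 in H24. The groups did not overlap and lay in the order NC, H8, H24. The log2 fold change was 3.99 ± 0.92 (SE) in H24/NC, adjusted p = 0.136, and 2.27 without H24 replicate 3.

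SLC7A7 (ENSSSCG00000002041, chromosome 7, 76176590 to 76235662, plus strand), the light chain that joins SLC3A2 to exchange cationic for neutral amino acids, was at 1.19, 1.37 and 1.13 FPKM in NC, 6.26, 1.19 and 3.44 in H8, and 7.43, 5.08 and 54.1 in H24. Every H24 library was above every NC library, while H8 replicate 2 lay within the NC range. The log2 fold change was 4.15 ± 0.95 in H24/NC, adjusted p = 0.136, and 2.30 without H24 replicate 3. The SLC7A7 span contains MMP14 on the other strand. MMP14 also rose (log2 fold change 1.44), and since the sources used here do not say whether counting used strand, reads of the pair cannot be told apart where they overlap. SLC3A2, its partner, was not called in any comparison.

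The other 3 of this group that rose in H24/NC sit on lysosomes or carry nucleobases. SLC36A1, a proton-coupled amino acid transporter, was at 2.52, 3.64 and 2.33 FPKM in NC and 6.17, 4.60 and 15.5 in H24, a log2 fold change of 1.60 ± 0.49. SLC38A9, a lysosomal amino acid sensor for the mTORC1 kinase complex, was at 0.640, 1.05 and 1.70 FPKM in NC and 3.10, 1.97 and 7.36 in H24, a log2 fold change of 1.85 ± 0.58. SLC43A3, a purine nucleobase transporter, was at 4.92, 9.24 and 6.14 FPKM in NC and 11.5, 8.35 and 24.9 in H24, groups that overlapped, with a log2 fold change of 1.11 ± 0.46. SLC36A1 and SLC43A3 were no longer called without H24 replicate 3 (0.89 and 0.51), whereas SLC38A9 was (1.13). SLC1A5 (log2 fold change 0.63) and SLC7A5, the large neutral amino acid exchanger (0.24), did not pass.

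In the sugar families 5 of 17 rose in H24/NC. SLC2A5 (ENSSSCG00000039651, chromosome 6, 69507826 to 69535528, minus strand), the fructose transporter GLUT5, was at 0.257, 0.126 and 0.0246 FPKM in NC, 2.16, 0.195 and 1.85 in H8, and 4.20, 1.98 and 19.7 in H24. SLC45A3 (ENSSSCG00000026547, chromosome 9, 66344745 to 66365966, minus strand), a proton-linked sugar transporter, was at 0.216, 0.280 and 0.193 FPKM in NC, 2.13, 0.389 and 1.06 in H8, and 3.01, 2.11 and 20.5 in H24. SLC2A6 (ENSSSCG00000024166, chromosome 1, 273067274 to 273075440, minus strand), the glucose transporter family member GLUT6, was at 0.557, 0.305 and 0.173 FPKM in NC, 1.74, 0.570 and 1.04 in H8, and 2.74, 3.11 and 12.1 in H24. All 3 were low in NC and higher in every H24 library, but they reached the level limit only with H24, so the limit favoured this. In each of them H8 replicate 2 was the lowest H8 library and lay within or just above the NC range. The macrophage marker sum was likewise lowest in replicate 2 among H8 libraries and highest in replicate 3 among H24 libraries, and its part in these changes was not tested.

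The log2 fold changes in H24/NC were 5.95 ± 1.20 for SLC2A5, 5.18 ± 0.99 for SLC45A3 and 4.10 ± 0.79 for SLC2A6, each with an adjusted p of 0.132. Without H24 replicate 3 they were 4.45, 3.42 and 3.06. NC counts of SLC2A5 were 42, 24 and 4, so its NC level rests on few reads. SLC37A2, which exchanges glucose 6-phosphate for phosphate, was at 5.09, 3.41 and 3.72 FPKM in NC and 10.3, 8.32 and 73.1 in H24. Its log2 fold change was 2.9 ± 0.86, and 1.17 without H24 replicate 3. The row named SLC5A10 (log2 fold change 1.33 ± 0.50) has an identifier that the reference gene table gives to PRPSAP2, so its identity is uncertain, and it was no longer called without H24 replicate 3 (0.53).

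Taurine and fatty acid carriers were among the largest changes. SLC6A6, the taurine transporter, was at 3.33, 2.06 and 2.83 FPKM in NC, 5.19, 15.4 and 3.46 in H8, and 8.25, 9.39 and 84.8 in H24, a log2 fold change of 3.63 ± 0.97 in H24/NC and of 1.67 without H24 replicate 3. SLC27A6 (ENSSSCG00000014257, chromosome 2, 131750650 to 131818449, plus strand), a fatty acid transport protein, was at 0.150, 0.0323 and 0.0852 FPKM in NC, 2.09, 0.165 and 0.951 in H8, and 3.31, 0.854 and 10.4 in H24, a log2 fold change of 5.74 ± 1.07 in H24/NC and of 4.49 without H24 replicate 3. Every H24 library of both genes was above every NC library, though SLC27A6 reached the level limit only with H24. The other fatty acid transport proteins differed: SLC27A1 (log2 fold change 0.42), SLC27A3 (-0.38) and SLC27A4 were not called, and SLC27A6 was the only one of the 9 fatty acid, choline and bile acid carriers called in H24/NC. SLC6A8, the creatine transporter, was at 10.5, 8.54 and 9.74 FPKM in NC and 11.4, 20.8 and 47.3 in H24, a log2 fold change of 1.46 ± 0.50 that was 0.74 and not called without H24 replicate 3.

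**Figure D3:**
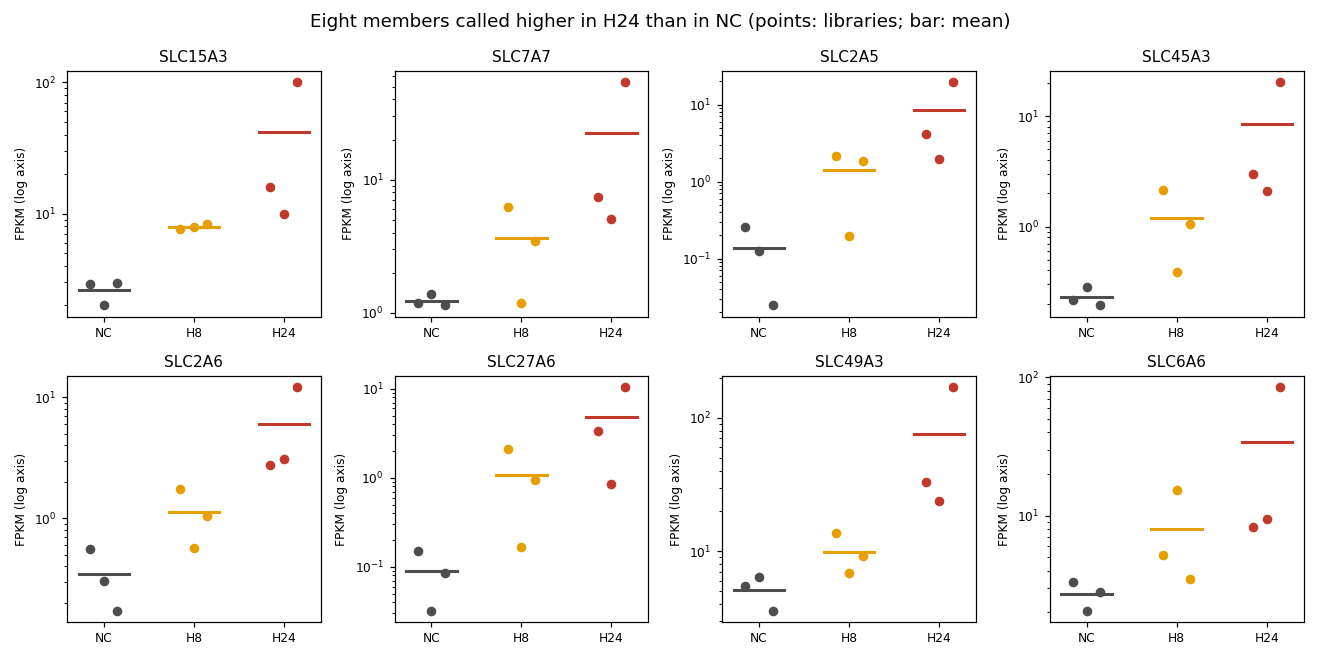
FPKM (log axis) of 8 members called higher in H24 than in NC, by group. Each point is a library and each bar a group mean of 3. All H24 points lie above all NC points in the 8 panels, and the highest H24 point in each panel is replicate 3. SLC2A5, SLC45A3, SLC2A6 and SLC27A6 reached the level limit only with H24.

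Several smaller groups each held 1 to 3 members that rose in H24/NC. SLC49A3 (ENSSSCG00000026084, chromosome 8, 120088 to 128425, minus strand) was at 5.47, 6.44 and 3.59 FPKM in NC, 13.6, 6.92 and 9.18 in H8, and 32.9, 23.6 and 169 in H24, a log2 fold change of 3.84 ± 0.82 and of 2.41 without H24 replicate 3. SLC16A3, the lactate exporter MCT4, was at 0.790, 2.37 and 0.524 FPKM in NC, 0.477, 0.921 and 1.27 in H8, and 2.74, 4.87 and 17.7 in H24, a log2 fold change of 2.74 ± 0.88 and of 1.60 without H24 replicate 3. SLC29A3, a nucleoside transporter of lysosomes, was at 0.954, 1.20 and 0.908 FPKM in NC and 3.405, 2.19 and 11.4 in H24, a log2 fold change of 2.45 ± 0.64 and of 1.42 without that library. None of the 3 overlapped between NC and H24.

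Ion and drug carriers also moved. SLC8B1, the sodium-calcium exchanger of mitochondria, was at 2.77, 2.61 and 2.66 FPKM in NC and 9.17, 5.42 and 27.4 in H24, a log2 fold change of 2.36 ± 0.59 and of 1.41 without H24 replicate 3. SLC4A11, a member of the bicarbonate transporter family, was at 0.529, 0.266 and 0.244 FPKM in NC and 2.08, 1.65 and 3.83 in H24, a log2 fold change of 2.84 ± 0.50. SLC47A1, a proton-coupled exporter of organic cations, was at 0.921, 0.747 and 0.594 FPKM in NC and 2.24, 3.78 and 2.20 in H24, a log2 fold change of 1.85 ± 0.38 with an adjusted p of 0.132. SLC47A1 differed from most of the other risers in that H24 replicate 3 was its lowest H24 library, and its log2 fold change without that library was 1.98. The copper transporter family member SLC31A2 (1.98 ± 0.71), the potassium-chloride cotransporter SLC12A7 (1.41 ± 0.44), the vesicular nucleotide transporter SLC17A9 (1.68 ± 0.62), the zinc carrier SLC39A11 (1.11 ± 0.38) and the monocarboxylate carrier SLC16A7 (1.56 ± 0.61) were called with all libraries and not without H24 replicate 3 (from 0.65 to 0.84). SLC22A23 (2.72 ± 0.81) was called either way, with 1.40 without that library, and the proton antiporter SLC9B2 (2.55 ± 0.85) only with that library. SLC4A11, SLC47A1, SLC22A23 and SLC9B2 reached the level limit only with H24.

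Mitochondrial and nucleotide sugar carriers changed little. Only SLC25A48 of 29 mitochondrial carriers was called in H24/NC, with a group median log2 fold change of -0.10, and none of 16 nucleotide sugar carriers was. SLC25A48, a mitochondrial carrier, had counts of 0, 0 and 4 in NC, 62, 0 and 24 in H8, and 113, 40 and 656 in H24. With NC at or near 0 counts, its fitted log2 fold change of 7.66 depends on the fit's prior count and is not a measured size. SLC25A48 also reached the level limit only with H24. The ADP/ATP carriers SLC25A4 (log2 fold change -0.31) and SLC25A5 (1.11) were not called, though SLC25A5 reached 77.3 FPKM in H24 replicate 3 against 17.6 to 29.9 in the other 8 libraries.

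The following high or well-known members were not called in any comparison. The phosphate importers SLC20A1 and SLC20A2 had log2 fold changes of 0.75 ± 0.32 and -0.67 ± 0.52 in H24/NC. SLC20A1 was at 9.19, 12.7 and 12.2 FPKM in NC and 16.4, 13.8 and 28.2 in H24, so its levels did not overlap, and SLC20A2 was at 16.8, 27.8 and 11.2 in NC and 14.9, 15.9 and 5.01 in H24. The sodium-calcium exchanger SLC8A1, at 18.4, 17.2 and 15.2 FPKM in NC and 13.9, 14.2 and 13.9 in H24, had a log2 fold change of -0.29 ± 0.19 with every H24 library below NC. The zinc carrier SLC39A1 (0.19 ± 0.23), the vitamin C transporter SLC23A2 (0.88 ± 0.44), the monocarboxylate carriers SLC16A1 (-0.07 ± 0.21) and SLC16A5 (0.17 ± 0.27), SLC22A17 (0.68 ± 0.29), SLC44A2 (0.03 ± 0.25) and SLC12A4 (-0.32 ± 0.35) did not pass in H24/NC.

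At 8 weeks a thiamine carrier, a cystine carrier, a copper carrier, a bile acid carrier subunit and SLC38A2 were higher than in NC, alongside part of the 24-week risers. In H8/NC, 17 of 163 members (10.4%) rose against 5.11% of all genes tested, and 3 (1.84%) fell against 2.27%. Of these 17, 8 reached the level limit only with the help of 1 group. Among the other 147 members 9 rose (6.12%), against 3.76% of all genes held to the same restriction. The median log2 fold change was 0.07 over members and 0.01 over all genes tested. Levels did not overlap in 17 members that were higher in H8 and in 28 (17.2%) that were lower, against 6.91% and 15.9% of all genes tested. At an unadjusted p under 0.05 of any size there were 39 members, against 14.8% of all genes tested. The same NC libraries enter H24/NC and H8/NC, and 9 members were called higher in both: SLC15A3, SLC22A23, SLC27A6, SLC2A5, SLC2A6, SLC45A3, SLC49A3, SLC6A6 and SLC7A7. In H8/NC, 5 of these 9 lost the call when 1 library was left out: SLC6A6 without H8 replicate 2 (log2 fold change 0.74) or NC replicate 2, SLC49A3 without H8 replicate 1 (0.77) or NC replicate 3, SLC7A7 without H8 replicate 1 (1.004), and SLC2A6 (1.34) and SLC22A23 (0.92) without H8 replicate 1 or NC replicate 2. With scaling by total count, 14 members were higher and 4 lower in H8/NC, the median over members was -0.08, and the genes called higher and lower over the whole table went from 733 and 326 to 576 and 459.

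SLC38A2 (ENSSSCG00000000808, chromosome 5, 77113494 to 77127714, minus strand), which cells are known to induce when amino acids are scarce, was at 24.2, 26.2 and 29.5 FPKM in NC, 52.9, 54.3 and 59.1 in H8, and 43.1, 21.6 and 18.5 in H24. All H8 libraries were above all others and close to each other. The log2 fold change was 1.20 ± 0.15 in H8/NC, adjusted p = 0.0652, and -1.19 ± 0.36 in H24/H8, adjusted p = 0.336, where it was -0.97 and not called without H24 replicate 3. SLC15A3 had the same adjusted p in H8/NC with a log2 fold change of 1.74 ± 0.21. Both were called in each fit that left out 1 library of H8/NC.

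SLC7A11 (ENSSSCG00000022649, chromosome 8, 88608030 to 88690581, plus strand), which imports cystine in exchange for glutamate, was at 1.07, 0.549 and 0.961 FPKM in NC, 1.47, 6.03 and 1.29 in H8, and 0.577, 0.937 and 0.616 in H24. SLC19A2, a thiamine transporter, was at 1.12, 1.41 and 1.75 FPKM in NC, 5.58, 16.9 and 1.98 in H8, and 1.84, 1.54 and 3.90 in H24. In both genes every H8 library was above NC and replicate 2 was by far the highest. The log2 fold changes in H8/NC were 1.97 ± 0.67 and 2.71 ± 0.75, and in H24/H8 they were -2.28 ± 0.71 and -2.01 ± 0.81. Without H8 replicate 2 the log2 fold change of SLC7A11 in H8/NC was 0.76 and that of SLC19A2 in H24/H8 was -0.78, and neither was called. Still called without that library, at smaller sizes, were SLC19A2 in H8/NC (1.48) and SLC7A11 in H24/H8 (-1.07). SLC7A11 also lost its H8/NC call without NC replicate 2 and its H24/H8 call without H24 replicate 1, and SLC19A2 lost its H24/H8 call without H24 replicate 1 or 2.

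SLC51B (ENSSSCG00000004923, chromosome 1, 163081140 to 163089489, plus strand), the smaller subunit of a bile acid and steroid exporter, was at 0.677, 0.290 and 0.487 FPKM in NC, 4.33, 4.59 and 0.550 in H8, and 0.464, 0.351 and 0.0782 in H24. H8 replicates 1 and 2 were high and replicate 3 lay within the NC range. Its log2 fold change was 2.88 ± 0.78 in H8/NC and -3.61 ± 0.98 in H24/H8. On the other strand SLC51B shares 5451 bases with RASL12, which had a mean of 31.2 FPKM, and 8350 bases with ENSSSCG00000035311. Neither of these genes was called in any comparison, and reads cannot be told apart where they overlap SLC51B. SLC51B kept its call in both comparisons whichever library was left out, but SLC51B and SLC7A11 reached the level limit only with H8. SLC31A1, the main copper importer, was at 3.11, 3.43 and 3.84 FPKM in NC, 5.59, 8.55 and 7.99 in H8, and 4.85, 2.27 and 13.7 in H24, and its log2 fold change in H8/NC was 1.24 ± 0.23, adjusted p = 0.143. The urea transporter SLC14A1 (1.89 ± 0.78) rose with overlapping levels and lost the call without any of 4 libraries, H8 replicates 1 and 3 and NC replicates 2 and 3. SLC35B2, which carries the sulfate donor into the Golgi, rose without overlap (1.12 ± 0.24) and lost the call without H8 replicate 3. It lies opposite ENSSSCG00000001701, annotated as an HSP90 chaperone, which had a mean of 98.1 FPKM and was not called.

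**Figure D4:**
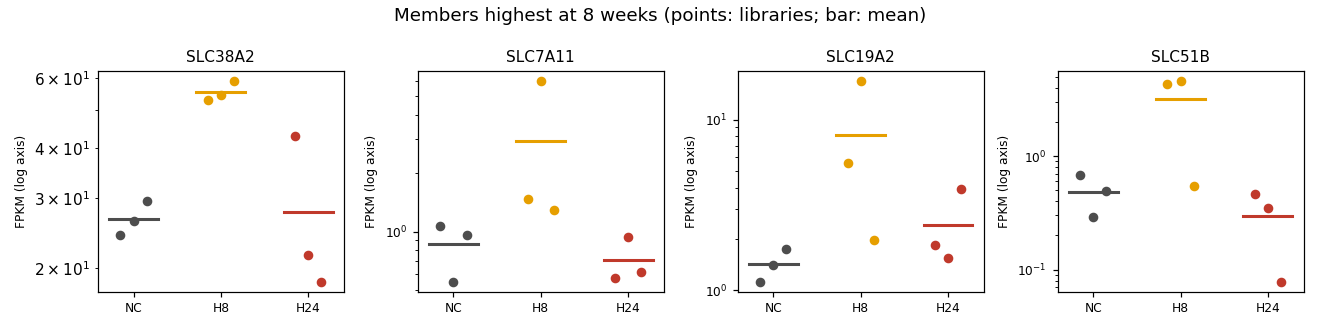
FPKM (log axis) of the 4 members called higher in H8/NC and lower in H24/H8. Each point is a library and each bar a group mean of 3. SLC38A2 has 3 H8 points close together between 52.9 and 59.1, whereas the H8 points of SLC7A11, SLC19A2 and SLC51B are spread. SLC7A11 and SLC51B reached the level limit only with H8.

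The 3 members that fell in H8/NC were SLC25A29, SLC16A9 and SLC5A2. SLC25A29, a mitochondrial carrier of basic amino acids, was at 11.3, 20.4 and 10.6 FPKM in NC, 5.69, 0.739 and 1.17 in H8, and 17.6, 2.48 and 4.64 in H24, a log2 fold change of -2.38 ± 0.74 in H8/NC. SLC5A2, the sodium-glucose cotransporter SGLT2, was at 1.77, 1.37 and 1.32 FPKM in NC, 0.882, 0.161 and 0.646 in H8, and 1.46, 1.62 and 1.49 in H24, a log2 fold change of -1.29 ± 0.53 that stayed called only without H8 replicate 1. Neither overlapped between NC and H8. SLC5A2 shares 7286 bases with C16orf58 on the other strand, which had a mean of 6.63 FPKM. C16orf58 was not called in H8/NC (log2 fold change -0.42), and reads of the pair cannot be told apart where they overlap. SLC16A9, a monocarboxylate carrier family member, was at 1.51, 6.30 and 4.99 FPKM in NC and 1.75, 0.712 and 1.48 in H8, levels that overlapped, with a log2 fold change of -1.59 ± 0.55 that was not called without H8 replicate 2 or NC replicates 2 or 3. The fat cell markers ADIPOQ, PLIN1 and CIDEC fell in the same comparison, with log2 fold changes of -6.39, -7.57 and -1.64, and their part in these 3 falls was not tested.

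SLC25A44 (ENSSSCG00000006494, chromosome 4, 93810507 to 93857146, minus strand), a mitochondrial carrier of branched-chain amino acids and called higher in H8/NC, shares 26314 bases of its span with PMF1 on the same strand. In CPM (counts scaled to the library total) SLC25A44 was at 3.81, 7.31 and 1.497 in NC, 28.6, 32.5 and 29.3 in H8, and 0.806, 0.839 and 16.6 in H24. PMF1 was at 23.9, 28.2 and 67.8 in NC, 4.08, 2.55 and 5.82 in H8, and 44.6, 50.6 and 8.07 in H24. The 4 libraries with the most SLC25A44, the H8 libraries and H24 replicate 3, were the 4 with the least PMF1.

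The sum of the pair was 27.7, 35.5 and 69.3 in NC, 32.7, 35.1 and 35.2 in H8, and 45.4, 51.4 and 24.7 in H24, and these groups overlapped. The log2 fold changes in H8/NC were 2.98 ± 0.54 for SLC25A44 and -3.13 ± 0.47 for PMF1. How the count program divided shared reads between the pair was not tested, so the rise of SLC25A44 is reported as uncertain. In H24/NC its log2 fold change was 0.51 with all libraries and -2.40 without H24 replicate 3.

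**Figure D5:**
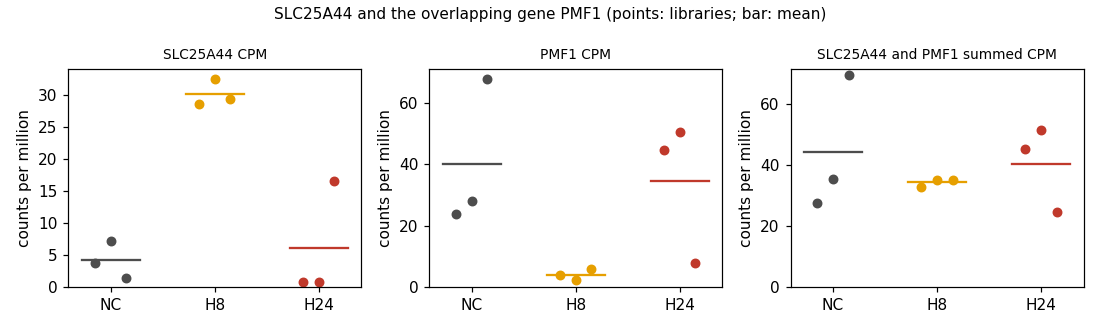
CPM of SLC25A44, of the overlapping gene PMF1 and of their sum, by group. Each point is a library and each bar a group mean of 3, and the vertical axes start at 0. The H8 points of SLC25A44 lie between 28.6 and 32.5 where those of PMF1 lie between 2.55 and 5.82, and the H8 points of the sum lie within the NC range.

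Between 8 and 24 weeks of the diet, 25 members (15.3%) rose in H24/H8 against 7.22% of all genes tested, and 6 (3.68%) fell against 3.05%. Of the 25, 6 reached the level limit only with the help of 1 group, and among the other 147 members 19 rose (12.9%), against 4.69% of all genes held to the same restriction. The median log2 fold change was 0.28 over members and 0.04 over all genes tested. Levels did not overlap in 42 members (25.8%) that were higher in H24 and in 8 (4.91%) that were lower, against 15.5% and 6.31%, and 34 members had an unadjusted p under 0.05 of any size, against 13.7%. This comparison leaned on single libraries more than the others: without H24 replicate 3, 9 rose and 10 fell, against 3.75% and 2.5% of all genes in that fit, and without H8 replicate 2, 13 rose and 4 fell, against 3.73% and 1.67%. Only 5 of the 25 and 1 of the 6 were called in every fit that left out 1 library. Of the 25, 17 were also called in H24/NC, which shares the H24 libraries. Amino acid carriers had the most calls, with 8 of 21 higher and SLC7A11 and SLC38A2 lower, and both nucleoside carriers were higher, though neither was called without H24 replicate 3.

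The 8 members that rose in H24/H8 but were not called in H24/NC are SLC29A1, SLC35C1, SLC35F6, SLC37A4, SLC38A7, SLC39A8, SLC43A2 and SLC7A2. SLC7A2, a carrier of arginine and other cationic amino acids, was at 3.81, 8.13 and 4.19 FPKM in NC, 3.78, 2.52 and 0.955 in H8, and 14.9, 7.58 and 4.82 in H24, a log2 fold change of 1.71 ± 0.60 in H24/H8. SLC43A2, a neutral amino acid carrier, was at 4.46, 5.28 and 4.38 FPKM in NC, 3.89, 1.54 and 2.25 in H8, and 6.39, 4.45 and 21.9 in H24, a log2 fold change of 1.91 ± 0.63. SLC39A8, an importer of zinc and manganese, was at 0.519, 0.945 and 2.62 FPKM in NC, 0.411, 0.976 and 0.327 in H8, and 2.39, 1.26 and 2.88 in H24, a log2 fold change of 1.68 ± 0.57. In all 3 the H24 libraries lay above the H8 libraries, and at least 1 NC library lay within the H24 range. SLC39A8 reached the level limit only with H24. SLC43A2 was not called without H24 replicate 3 (0.92) or H8 replicates 2 or 3, SLC7A2 without H8 replicate 2 or H24 replicate 1, and SLC39A8 without H8 replicates 1 or 3 or H24 replicate 1. Without H24 replicate 3 the log2 fold changes of SLC29A1, SLC35C1, SLC35F6, SLC37A4 and SLC38A7 ran from 0.45 to 0.88 and none was called. SLC37A4 overlaps TRAPPC4 on the other strand, which also rose in H24/H8 (1.26), and reads of that pair cannot be told apart where they overlap.

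SLC6A17, a vesicular carrier of neutral amino acids and the highest member of the neurotransmitter group, fell in H24/H8. It was at 33.7, 22.6 and 25.8 FPKM in NC, 47.5, 32.2 and 53.2 in H8, and 10.99, 24.0 and 5.03 in H24, a log2 fold change of -1.87 ± 0.57 that was not called without H24 replicate 1. H24 lay below H8 in every library, while H24 replicate 2 lay within the NC range. SLC25A25, a mitochondrial ATP-magnesium and phosphate carrier, also fell (-1.64 ± 0.51) with overlapping levels and was not called without H8 replicate 2.

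Read over all 3 groups, non-overlapping levels in the order NC, H8, H24 were seen in 3 members (1.84%), SLC15A3, SLC49A3 and SLC2A6, against 1.03% of the 11239 genes with a mean of 1 FPKM or more. The opposite order was seen in no member and in 0.16% of those genes. H24 lay above both other groups in 23 members (14.1%) against 6.8%, and below both in no member against 2.71%. Among the 23, SLC2A6, SLC47A1 and SLC4A11 are members only because H24 is high, and SLC2A6 also counts in the order NC, H8, H24. H8 lay above both in 3 members (1.84%), SLC38A2, SLC25A44 and SLC7A11, against 1.71%, although SLC25A44 and SLC7A11 are members only because H8 is high, and below both in 12 (7.36%) against 5.11%. H24 replicate 3 was the highest library in 81 members (49.7%), against 29.1% of those genes. The FPKM sum of the members was 1285 to 1355 in NC and H8, 1442 and 1398 in H24 replicates 1 and 2, and 2304 in H24 replicate 3.

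Other transporter families measured in the same libraries moved as follows. Of 22 ABC transporters tested, which pump substrates with ATP, 7 rose in H24/NC and none fell, where 9.95% of all genes tested rose and 1.52% fell. ABCA1, which exports cholesterol to apolipoprotein A-I, was at 0.527, 0.454 and 0.483 FPKM in NC, 1.52, 0.919 and 1.59 in H8, and 5.35, 4.36 and 15.5 in H24. Its groups followed each other without overlap, and the log2 fold change in H24/NC was 4.08. ABCG1, its partner in sterol export, had a log2 fold change of 3.77. Of 24 major facilitator and partner proteins tested, 9 rose in H24/NC and none fell. Of 14 P-type ion pumps, 3 rose and ATP2C2 fell, and of 6 SLCO carriers SLCO2B1 rose. Of 3 aquaporins tested, 2 rose.

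Targets of the amino acid starvation response, which is known to induce SLC38A2 and SLC7A11, had 2 of 18 genes called higher in H8/NC and 3 called lower in H24/H8, against 5.11% and 3.05% of all genes tested. In H24/NC 1 was called higher and 1 lower. ATF3, a stress-induced transcription factor, was at 72.4, 20.3 and 105 FPKM in NC, 866, 567 and 205 in H8, and 67.8, 67.9 and 37.0 in H24. H8 was above both other groups in every library. CHAC1 also rose in H8/NC (log2 fold change 1.60), and PHGDH and CEBPB fell in H24/H8 (-2.02 and -1.04). The remaining genes of the list were not called in these comparisons.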

How the data were processed

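RNA was sequenced as poly(A) paired-end libraries from the abdominal aorta. The extraction text of the labels names an adipose type, whereas the tissue labels name the aorta. The authors mapped reads with HISAT 2.0 to Sscrofa11.1 and quantified them with StringTie 1.3.0. The submitters' processing notes also list Bowtie 0.12.2 and mm8, whose role is not stated. The deposited table holds FPKM values and whole-number estimated counts, and how the authors derived these expected counts, and whether counting used strand, is not given in the sources used here. No column of values went unmapped.

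From these counts edgeR 4.0.16 (R 4.3.3, TMM scaling, quasi-likelihood fit, no block) was run on the whole table for each pair of groups, with genes at a mean FPKM of at least 0.1 over both groups. Calls required an unadjusted p under 0.05 and a log2 fold change beyond 1, and Benjamini-Hochberg adjusted values stand beside them. SE is the log2 fold change divided by the square root of F. FPKM served for levels and overlap. Alternatives used DESeq2 1.42.0, limma 3.58.1, other scalings and filters, all libraries in 1 fit, a replicate block and leaving out each library. The scripts were tested on simulated counts.

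The floor of 3 counts lay between 0.0396 and 0.0680 CPM, and it covers counting error only. By the study's methods 3 pigs were taken from each group, and the labels do not tie libraries to animals. Library pairs within a group differed by more than sampling noise (chi-square per degree of freedom at least 163.63). The members and lists were chosen with earlier results of these data known. Described genes were the 6 highest by level, the highest of each functional group, those nearest the level limit, the largest called changes without overlap (10 in each direction in H24/NC, 6 in the other comparisons) and a fixed list of well-known carriers. Further called members, and those named for a pattern, were chosen after their values were seen. An item of the fixed list is not reported here. Gene symbols equalled the reference table for 152 of 163 members, and 8 identifiers had no entry. Of the members, 61 overlap another gene and 49 overlap one on the opposite strand. No sequences are shown.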

Additional observations from a re-analysis of the deposited data

Results flagged for a closer look

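In FPKM, SLC29A1 and SLC38A7 lay on opposite sides of NC at 8 and 24 weeks: every H8 library lay below every NC library and every H24 library above. The share of all genes with this pattern was not counted. SLC29A1, the equilibrative nucleoside transporter that takes up adenosine, was at 10.2, 9.71 and 8.49 FPKM in NC, 6.22, 4.82 and 6.69 in H8, and 11.02, 10.3 and 23.7 in H24, with an H24 mean of 14.995. SLC38A7, a glutamine transporter of lysosomes, was at 4.88, 6.14 and 5.55 FPKM in NC, 4.57, 2.44 and 4.65 in H8, and 8.21, 7.40 and 15.3 in H24, with an H24 mean of 10.304. Some gaps were narrow, with 10.3 in H24 against 10.2 in NC for SLC29A1 and 4.65 in H8 against 4.88 in NC for SLC38A7. These levels do not carry the TMM scaling of the tests. Its H8/NC factors were 1.074, 1.022 and 1.064 in NC and 0.9787, 0.8726 and 1.002 in H8. The gap between H8 and NC for SLC38A7 therefore need not hold under that scaling. Neither gene was called in H24/NC or in H8/NC, where the log2 fold changes were -0.55 ± 0.15 and -0.39 ± 0.26. That the 2 diet times move in opposite directions was not tested as such. In H24/H8 both were called by edgeR's quasi-likelihood test, with log2 fold changes of 1.16 ± 0.35 and 1.24 ± 0.36 and a Benjamini-Hochberg adjusted p of 0.336. Without H24 replicate 3 they were 0.69 and 0.85, and neither was called. Dixon's criterion for outlying samples was not applied.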

How the results depend on the processing

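With the adjusted p as threshold, members called up and down numbered 0 and 0 in all 3 comparisons by edgeR. Called lower in H24/NC, against 0, was 1 member by DESeq2, 1 with all 9 libraries in 1 fit, 1 with the replicate block, and 1 by limma on log2(FPKM + 0.1) and on log2(FPKM + 1). Members called higher in H8/NC fell from 17 to 10 by limma on log2(FPKM + 0.1) and to 5 on log2(FPKM + 1), and in H24/H8 from 25 to 16 on log2(FPKM + 1). Leaving out each library in turn gave 19 to 37 higher and 0 to 5 lower (5 without H24 replicate 2) in H24/NC, and 12 to 20 higher and 1 (without NC replicate 3) to 7 (without H8 replicate 1) lower in H8/NC. In H24/H8 it gave 9 (without H24 replicate 3) to 33 higher and 3 (without H24 replicate 1) to 12 (without H24 replicate 2) lower, and fewer were higher without H8 replicate 2 (13) or 3 (15). In H24/NC the log2 fold change of SLC25A44, 0.51 with all libraries, ran from -2.40 (without H24 replicate 3) to 1.22 (without NC replicate 2). Counting, as chosen after seeing the data, only members at the level limit whichever group was left out of the mean, 18, 9 and 19 were higher in H24/NC, H8/NC and H24/H8. The causes were not tested. For the named genes, 2030 alternative values kept direction and side of the threshold, 89 changed sign without being called either way, 154 lost the call, 58 gained it, and 1, that of SLC25A44, changed sign with a call.

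Scaling by total count moved the median of all genes to -0.13 in H8/NC and 0.24 in H24/H8. Genes called higher and lower in H8/NC, 733 and 326 in all, numbered 440 and 489 by limma on log2(FPKM + 0.1). The labels number replicates 1 to 3 in every group without pairing them, and deviations of same-numbered libraries correlated between -0.0923 and 0.0944. With the replicate block 24 members were higher and 1 lower in H24/NC, 16 and 3 in H8/NC, and 24 and 8 in H24/H8. With 3 libraries a group, and 1 standing apart in H24, differences under the spread of that group were not detectable.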

Other observations

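H8 replicate 2 had the highest level of the 9 libraries for several carriers and transport proteins outside the carriers described, with no test. The thiamine carrier SLC19A2 was at 16.9 FPKM there against 1.12 to 5.58 in the others, SLC7A11 at 6.03 against 0.549 to 1.47, and SLC16A1, the lactate and pyruvate carrier MCT1, at 8.78 against 2.93 to 3.91. ATP1B1, a subunit of the sodium-potassium pump, was at 44.5 against 6.73 to 19.8, and XPR1, a phosphate exporter, at 8.16 against 1.16 to 2.80. The macrophage markers of that library summed to 58.1 FPKM, near the NC range, and its fibroblast markers to 7357 FPKM, against 2948 to 6073 in the others. These genes were chosen after their values were seen.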
